A study of Gallus gallus with 50 samples.

Results

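Avidin (AVD) was followed in the intestinal mucosa of young broiler chickens. Its members were all probe sets to which the platform annotation gives AVD as the single gene symbol, and there was 1 such probe set (NCBI gene ID 396260) among 38382 tested. AVD was chosen by its measured difference between the ileum and the jejunum in these same arrays. The difference between the segments is therefore given as a description, with no test. The comparisons of diets, the comparison of products and the relations across birds were not used in the choice. Relations over all arrays, however, include some arrays that went against their segment labels, and so carry part of the segment difference.

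The study measured RNA in mucosal scrapings of male Cobb 500 broilers on day 10, with 1 ileum array and 1 jejunum array from each of 25 birds, 5 birds per diet. The LPC-low and LPC-high diets supplied 9.5 and 19 g/T of lysophosphatidylcholine (LPC) as purified LPC on a carrier, fed at 500 and 1000 g/T. The lysolecithin-low and lysolecithin-high diets gave matching LPC levels, 9.5 and 19 g/T, through lysolecithin fed at 250 and 500 g/T. The control diet had no supplement. LPC is a single-chain phospholipid, and lysolecithin is the mixture from which the purified LPC was isolated. Every bird was a male of the same cross, raised in floor pens of 25 that shared a room. The labels give no pen per bird, so pen and diet cannot be told apart. They place the birds in 3 batches that each held 1 or 2 birds of every diet.

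Avidin is a secreted glycoprotein best known from egg white, where the oviduct deposits it under the control of progesterone. It binds biotin almost irreversibly. Biotin is the vitamin carried by carboxylases of fatty acid synthesis, amino acid breakdown and gluconeogenesis, and avidin is thought to deny it to microbes. Chickens also make avidin outside the oviduct, in inflamed or injured tissue and in macrophages, and the gut is among the tissues in which it has been described. In the current gene table (assembly GRCg7b) AVD lies beside a family of close relatives, AVDL, LOC427416 and AVR2, with CREB3L4 as its neighbour outside the family.

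Some arrays went against their segment labels, which bears on all that follows. A segment score was made for each array without any avidin-family probe set, as the mean of 15 jejunum-biased genes minus that of 15 ileum-biased genes, which were picked each time with the bird in question left out. The median score was -4.91 for arrays labelled ileum and 2.04 for arrays labelled jejunum, and 4 arrays of 4 birds lay beyond the halfway value of -1.435. The library labelled jejunum of control replicate 2 scored -4.69, and that of LPC-low replicate 4 scored -5.57. The library labelled ileum of LPC-low replicate 1 scored 3.81, and that of lysolecithin-high replicate 4 scored 3.69. The remaining 23 arrays of each segment are called own-side here: they scored -5.92 to -3.95 in the ileum and -1.35 to 5.61 in the jejunum. The jejunum array of LPC-low replicate 1, at -1.35, was the nearest to the halfway value. Arrays were also matched between segments on 100 probe sets, those whose ileum and jejunum signals correlated best across the other birds. On these, for 24 of 25 birds the ileum array resembled the jejunum array of the same bird more than that of any other bird. The exception was LPC-low replicate 4, whose own pair correlated at 0.126 while the best pair with another bird reached 0.421.

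AVD was bright in the ileum of nearly every bird and much dimmer in the jejunum. Signals are log2 values made with RMA, on which the whole table ran from 1.84 to 13.99. In the ileum AVD stood at 7.57, 12.86, 13.30, 11.39 and 12.18 in the LPC-low birds and at 12.60, 12.64, 12.85, 12.20 and 12.99 in the LPC-high birds. It stood at 12.76, 12.79, 12.64, 12.72 and 12.09 in the lysolecithin-low birds and at 11.85, 12.36, 12.93, 8.46 and 12.09 in the lysolecithin-high birds. The control birds had 11.57, 12.64, 12.82, 12.02 and 12.84. The 2 lowest ileum signals, 7.57 and 8.46, came from the arrays that scored as jejunum.

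In the jejunum AVD stood at 8.13, 7.48, 7.63, 13.12 and 7.35 in the LPC-low birds and at 6.77, 6.46, 7.71, 5.42 and 6.49 in the LPC-high birds. It stood at 6.85, 8.28, 6.46, 5.82 and 5.67 in the lysolecithin-low birds and at 7.43, 5.69, 5.83, 7.20 and 6.34 in the lysolecithin-high birds. The control birds had 10.19, 12.55, 8.03, 9.43 and 5.67, the widest spread of any jejunum group. The 2 highest jejunum signals, 13.12 and 12.55, came from the arrays that scored as ileum. All 4 of these arrays had an AVD signal inside the own-side range of the segment they were not labelled as. On own-side arrays the segments did not overlap, since the lowest ileum signal was 11.39 and the highest jejunum signal was 10.19. The genes of the score that sorts the arrays were chosen, like AVD, by the segment difference, so this separation is no independent check.

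**Figure D1:**
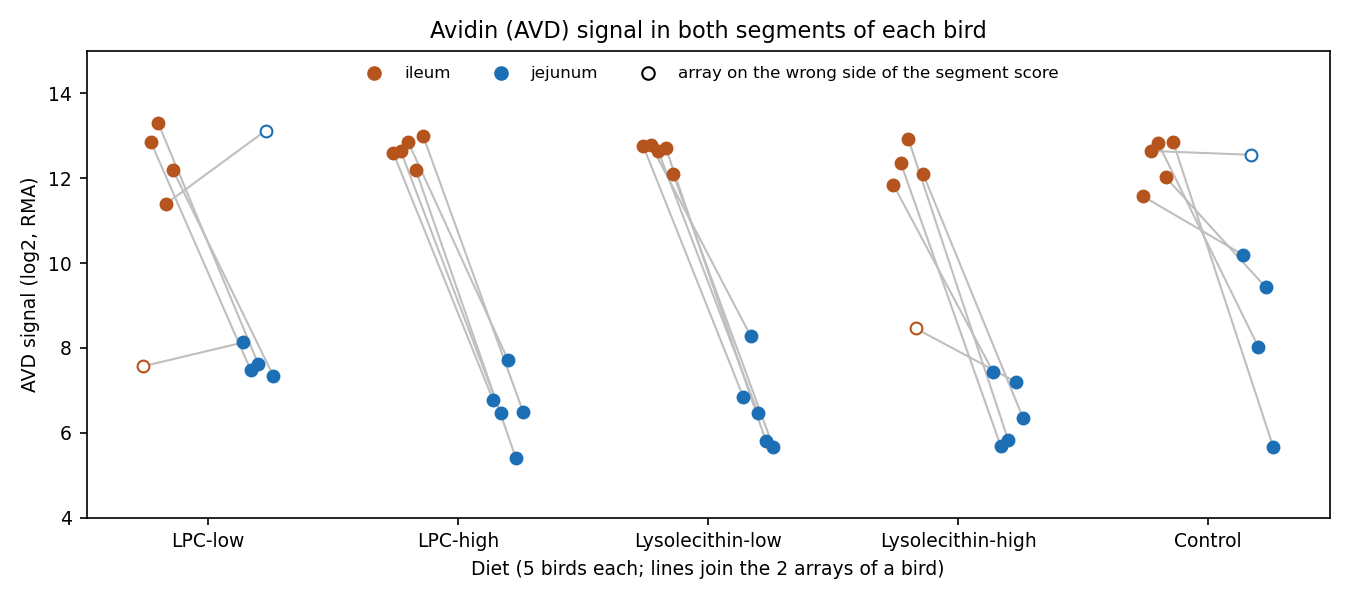
AVD signal (log2, RMA) on the vertical axis for the 5 diets on the horizontal axis, ileum points left and jejunum points right within each diet, with a line joining the 2 arrays of each of the 25 birds and open points for the 4 arrays on the wrong side of the segment score. The lines run steeply downward from ileum to jejunum in most birds, run nearly flat in control replicate 2 (12.64 in the ileum and 12.55 in the jejunum), and run upward in 2 LPC-low birds.

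Over all 25 birds AVD averaged 12.13 ± 1.33 in the ileum and 7.52 ± 1.99 in the jejunum (SD). The difference within birds, ileum minus jejunum, was 4.61 ± 2.57 (SD, n = 25) with a median of 5.67 and a range of -1.73 to 7.17. That mean is a 24.4-fold ratio of signal, and AVD was higher in the ileum of 23 of 25 birds. Over the 21 birds with both arrays on their own side, AVD averaged 12.53 ± 0.44 in the ileum and 7.00 ± 1.27 in the jejunum. The difference was then 5.53 ± 1.45 (SD, n = 21), ran from 1.38 to 7.17 and was positive in all 21 birds, a 46.2-fold ratio. These birds were kept by a score of genes chosen, like AVD, by the segment difference. The sorting itself favours a larger difference, so these values are no separate support for it. In this comparison limma with the bird as a block called 19.7% of all probe sets at an adjusted p under 0.05 over all 25 birds, 9.8% higher and 9.92% lower in the ileum, and 23.6% over the 21 own-side birds. AVD had the largest mean difference toward the ileum of all 13009 genes, which is how it came to be chosen. SLC10A2, the apical bile acid transporter of the ileum, followed at 4.58. By batch the mean difference was 3.47 in batch 1, 5.60 in batch 2 and 4.62 in batch 3, and AVD was higher in the ileum of 7 of 8, 9 of 9 and 7 of 8 birds.

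The segment difference of AVD is given by diet as a description, since the test of diet on it did not pass (limma F-test, adjusted p = 0.41). It averaged 2.72 ± 3.56 in LPC-low, 6.09 ± 0.64 in LPC-high, 5.98 ± 0.90 in lysolecithin-low, 5.04 ± 2.35 in lysolecithin-high and 3.20 ± 2.81 in control birds (SD, n = 5 each). On own-side birds the values were 5.29 ± 0.43 in LPC-low (n = 3), 5.99 ± 1.19 in lysolecithin-high (n = 4) and 3.98 ± 2.55 in control (n = 4). The ileum signals of the own-side control birds lay with those of the other diets, and it was their jejunum signals that ranged widely. Within the control group, replicate 1 differed between segments by 1.38 and replicate 5 by 7.17.

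Ordered by mean, the 10 groups began with ileum LPC-high at 12.66 ± 0.30, ileum lysolecithin-low at 12.60 ± 0.29 and ileum control at 12.38 ± 0.56. Ileum lysolecithin-high at 11.54 ± 1.77 and ileum LPC-low at 11.46 ± 2.29 followed, and each of these holds an array on the wrong side. Jejunum control at 9.17 ± 2.55 and jejunum LPC-low at 8.74 ± 2.47 came next, and each of them also holds such an array. The lowest were jejunum lysolecithin-low at 6.62 ± 1.05, jejunum LPC-high at 6.57 ± 0.82 and jejunum lysolecithin-high at 6.50 ± 0.79 (SD, n = 5 birds each). Every pair of neighbours in this order differed by no more than the larger of their SDs, and their ranges overlapped. On own-side arrays jejunum control averaged 8.33 ± 1.99 (n = 4) and jejunum LPC-low 7.65 ± 0.34 (n = 4), against 12.31 ± 0.46 in ileum lysolecithin-high (n = 4) and 12.43 ± 0.83 in ileum LPC-low (n = 4).

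The segment markers moved as the labels say in most arrays. SLC10A2 was 4.58 ± 0.69 higher in the ileum, FABP6, the bile acid binding protein of ileal enterocytes, was 3.63 ± 0.60 higher (SE), and the lipid receptors CD36 and SCARB1 differed by -3.70 and -3.58 on the log2 scale. In all, 4 of 5 ileal enterocyte markers were higher and 5 of 5 jejunal ones lower in the ileum by limma with the bird as a block (adjusted p under 0.05). Some other markers also passed, where 9.8% of all probe sets were higher and 9.92% lower. Lower were 4 of 6 smooth muscle markers and 1 of 4 T cell markers. Higher were 2 of 4 epithelium, 2 of 4 goblet cell and 2 of 4 heterophil markers (LYG2 and S100A12). So were 1 of 6 macrophage markers (CTSS) and 1 of 3 oviduct markers (SPINK5). No B cell marker passed. S100A12 was dim, at 3.56 in the ileum and 3.29 in the jejunum, below the array medians of 4.57 to 4.70. LYG2 is counted again below among the defence genes, and the other 2 heterophil markers did not pass. The macrophage list as a whole did not follow CTSS: only 2 of its 6 differences were positive, and its median was -0.12. No marker is at 0 on this scale, and the part of these cells in the AVD signal was not tested. In mucosal scrapings a different share of a cell type and a different amount of RNA per cell cannot be told apart.

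**Figure D2:**
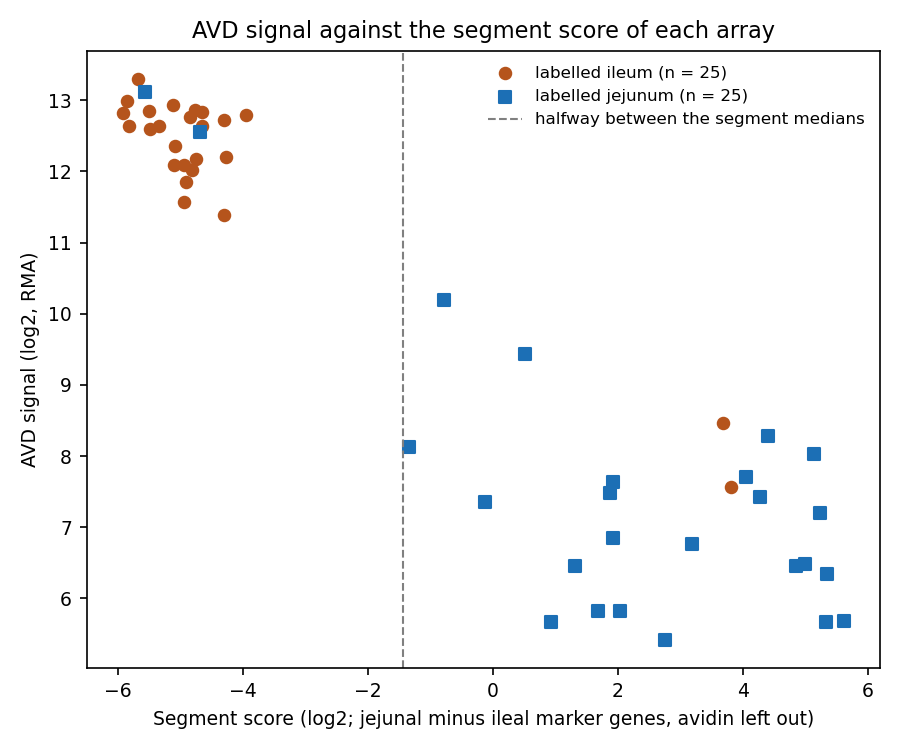
AVD signal (log2, RMA) on the vertical axis against the segment score of the array on the horizontal axis, with circles for the 25 arrays labelled ileum, squares for the 25 labelled jejunum and a dashed line at the halfway score of -1.435. The 2 squares on the left lie among the ileum circles at 12.55 and 13.12, and the 2 circles on the right lie among the jejunum squares at 7.57 and 8.46.

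Within a segment AVD varied from bird to bird, and its relation to the segment score among own-side arrays did not pass the test. Pearson's r with the score was -0.389 in the jejunum (n = 23, permutation p = 0.0659, adjusted p = 0.126 over 7 relations) and -0.383 in the ileum (n = 23, permutation p = 0.072, adjusted p = 0.126). Spearman's rho was -0.335 (p = 0.118, adjusted p = 0.228) and -0.325 (p = 0.13, adjusted p = 0.228) by the same permutation test. Without the 2 arrays farthest from the median score, r was -0.137 in the jejunum (permutation p = 0.554) and -0.473 in the ileum (permutation p = 0.0301). Over all 25 arrays r was -0.747 in the jejunum and -0.941 in the ileum (permutation, adjusted p = 0.00035 each), and rho was -0.482 and -0.474 (adjusted p = 0.0411 each). In each segment 2 of these points are the wrong-side arrays, which stand apart from the rest. AVD and the genes of the score were both chosen by the segment difference. The values over all 25 arrays therefore restate that difference through these 2 arrays and are no test of a relation within a segment. Without the 2 farthest of the 25 arrays, r was -0.389 in the jejunum and -0.383 in the ileum, the own-side values. Within batches 1, 2 and 3 of own-side arrays, r was -0.438, -0.331 and -0.071 in the jejunum and -0.005, -0.436 and -0.622 in the ileum. The 3 own-side jejunum arrays with the highest AVD, 10.19, 9.43 and 8.28, had scores of -0.78, 0.51 and 4.40. A low score thus went with a high AVD signal in some of these arrays and not in others.

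Over own-side birds of all diets pooled, jejunum AVD was also related to a measure of transcript coverage. The index used was the mean over 3 control transcripts of the 5′ minus the 3′ probe set signal, and it falls when the 5′ ends are under-represented. Across the 23 own-side jejunum arrays r was -0.553 (permutation p = 0.00634, adjusted p = 0.0392) and rho was -0.483 (permutation p = 0.0205, adjusted p = 0.144). With the 2 wrong-side arrays included r was -0.204 (n = 25, permutation p = 0.332, adjusted p = 0.387) and rho was -0.343 (permutation p = 0.0946), and r in batch 3 was then 0.322. Among own-side arrays, without the 2 farthest from the median index, r was -0.441 (permutation p = 0.0449), and within batches it was -0.902, -0.451 and -0.367. In the ileum r was 0.012 (n = 23, permutation p = 0.957) and rho was 0.036 (permutation p = 0.87). On own-side arrays Pearson's r passed the adjusted threshold and Spearman's rho did not, and r was negative in every batch. Over all 25 jejunum arrays neither passed, so the relation depends on leaving out the wrong-side arrays. All relations are two-sided, and the birds of all diets were pooled in them. Among own-side jejunum groups, control had the lowest mean index (-0.97) and the highest mean AVD (8.33). LPC-high had the highest mean index (-0.44), with a mean AVD of 6.57. The relation to the index can therefore not be told apart from differences between the diet groups.

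No relation between AVD in one segment and AVD in the other passed the test. Over the 21 own-side birds r between jejunum and ileum was -0.28 (permutation p = 0.221, adjusted p = 0.258) and rho was 0.008 (permutation p = 0.973, adjusted p = 0.973). Without the 2 farthest birds r was 0.08, and within batches it was -0.683, -0.22 and -0.026.

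The first dietary question was whether a supplement changed AVD within a segment. In the jejunum the AVD mean was below that of controls in all 4 supplemented diets, least so in LPC-low birds, and no difference passed the threshold after adjustment over all probe sets. In LPC-high birds all 5 jejunum signals lay below 4 of the 5 control signals, and in lysolecithin-high birds likewise. The fifth control bird, at 5.67, lay among the lowest jejunum arrays of any diet. The groups therefore overlapped.

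By limma, with diet and batch as terms, jejunum AVD differed from control by -2.65 ± 1.01 in LPC-high birds (SE; unadjusted p = 0.0157, adjusted p = 0.313; 95% interval -4.75 to -0.55). In lysolecithin-low birds it differed by -2.56 ± 0.99 (unadjusted p = 0.0179, adjusted p = 0.432; interval -4.63 to -0.49), and in lysolecithin-high birds by -2.44 ± 1.01 (unadjusted p = 0.0246, adjusted p = 0.216; interval -4.54 to -0.35). In LPC-low birds the difference was -0.20 ± 1.01 (adjusted p = 0.975; interval -2.30 to 1.90). Of all probe sets, limma called 0.00261% in LPC-low, 0.112% in LPC-high, 0.0495% in lysolecithin-low and 0.829% in lysolecithin-high birds in the jejunum. The F-test over all diets gave 3.64 for AVD (unadjusted p = 0.0213, adjusted p = 0.289), and 0.13% of probe sets passed it. A permutation test (exact, two-sided, 5 birds a side) gave p = 0.786 for LPC-low, 0.0635 for LPC-high, 0.0952 for lysolecithin-low and 0.0635 for lysolecithin-high, where the smallest possible p is 0.0079. The 4 comparisons share the same 5 control birds.

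The jejunum differences did not hold in every batch. In batch 1, where the 2 control birds averaged 11.37 and one of them was the array that scored as ileum, the differences from control were -3.24 for LPC-low, -4.76 for LPC-high, -3.81 for lysolecithin-low and -3.94 for lysolecithin-high. In batch 2 they were -1.18, -1.02, -2.59 and -2.97 in the same order of diets. In batch 3, with 1 control bird at 5.67, they were 4.57, 0.29, 0 and 1.10. The LPC-low value there includes the array at 13.12 that scored as ileum, and the other LPC-low bird of that batch had 7.35. The direction was thus shared by batches 1 and 2 and absent from batch 3.

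Other measures moved with the diet groups in the jejunum. The segment score averaged -0.65 ± 3.08 in LPC-low, 3.26 ± 1.38 in LPC-high, 2.76 ± 1.75 in lysolecithin-low, 4.50 ± 1.47 in lysolecithin-high and 1.10 ± 4.23 in control arrays. The 5′ minus 3′ index averaged -0.69 ± 0.28 in LPC-low, -0.44 ± 0.09 in LPC-high, -0.64 ± 0.16 in lysolecithin-low, -0.61 ± 0.29 in lysolecithin-high and -0.94 ± 0.14 in control arrays (SD, n = 5 each). The controls thus had the lowest index and, after LPC-low, the most ileum-like score. The LPC-low and control means, and the marker ranges of these groups below, each include a wrong-side array. On own-side arrays (n = 4 each) the score averaged 0.58 ± 1.60 in LPC-low and 2.55 ± 3.15 in control (SD). The control score then lay close to that of lysolecithin-low. The own-side index averaged -0.78 in LPC-low and -0.97 in control. The mean signal of the 5 ileal enterocyte markers ran from 9.20 to 11.35 in LPC-low, 7.21 to 9.60 in LPC-high, 7.24 to 10.48 in lysolecithin-low, 6.74 to 9.28 in lysolecithin-high and 6.49 to 11.02 in control jejuna.

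Markers of other cell types also differed in level between the jejunum groups. The mean of 6 smooth muscle markers ran from 4.64 to 6.56 in LPC-low, 5.69 to 6.94 in LPC-high, 4.78 to 6.15 in lysolecithin-low, 5.12 to 7.17 in lysolecithin-high and 4.84 to 6.27 in control jejuna. All 6 stood above control in LPC-high (median difference 0.54) and in lysolecithin-high birds (0.99), though none passed the threshold by limma. The mean of 6 macrophage markers ran from 5.54 to 6.94 in LPC-low, 6.59 to 8.54 in LPC-high, 5.99 to 6.90 in lysolecithin-low, 5.83 to 7.94 in lysolecithin-high and 5.80 to 7.01 in control jejuna. Of these, 6 stood above control in LPC-high (median 0.86) and 5 in lysolecithin-high birds (0.89), and none passed. Of 4 goblet cell markers 1 passed, the mucin MUC2, with a difference of -1.96 ± 0.47 in lysolecithin-high birds (limma, adjusted p = 0.0495). In that comparison 0.829% of all probe sets passed, 0.662% with a lower signal. MUC2 was also lower in the ileum of lysolecithin-high birds (-1.74 ± 0.34, limma, adjusted p = 0.03), where 0.216% of probe sets passed. The macrophage marker CTSS was higher in the ileum of lysolecithin-low birds (0.75 ± 0.16, limma, adjusted p = 0.0234), where 0.875% passed. The macrophage list as a whole did not follow CTSS there. Of its 6 differences 4 were positive and only CTSS passed, with a median of 0.003 against 0.018 for all probe sets.

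Removing the wrong-side arrays or adjusting for the score brought the LPC-high, lysolecithin-low and lysolecithin-high differences nearer to 0. Without the arrays on the wrong side the limma differences were -0.68 ± 0.62 for LPC-low (SE; unadjusted p = 0.287) and -1.80 ± 0.60 for LPC-high (unadjusted p = 0.00768, adjusted p = 0.255). They were -1.87 ± 0.59 for lysolecithin-low (unadjusted p = 0.00535, adjusted p = 0.342) and -1.70 ± 0.59 for lysolecithin-high (unadjusted p = 0.0101, adjusted p = 0.153). The SEs and unadjusted p-values of these 3 were smaller than with all arrays, though none passed after adjustment. The arrays left out held the 2 highest jejunum AVD signals, 13.12 and 12.55. They were sorted by genes chosen, like AVD, by the segment difference. Leaving them out itself favours a smaller spread, so the smaller p-values are no separate support for a diet difference. With the segment score as a covariate the differences were -1.04, -1.68, -1.87 and -1.15 in the same order (adjusted p = 0.833, 0.43, 0.437 and 0.54). With the 5′ minus 3′ index as a covariate over all 25 jejunum arrays, wrong-side arrays included, they were larger, at -0.76, -3.81, -3.26 and -3.17. The wrong-side array of LPC-low replicate 4 had both a high index (-0.295) and a high AVD signal (13.12). Index and AVD were related at r = -0.204 over all arrays and -0.553 over own-side arrays. A fit with the index as a covariate on own-side arrays alone is not given here. The part of position along the gut and of transcript coverage in the jejunum differences was otherwise not tested, nor was that of the muscle, macrophage and goblet cell markers.

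In the ileum AVD stayed near its high level on every diet. Outside the 2 arrays that scored as jejunum, all 23 signals lay between 11.39 and 13.30. The highest value of the whole table was 13.99, and whether signals this bright still separate levels of RNA was not tested. AVD differed from control by -0.97 ± 0.75 in LPC-low (adjusted p = 0.657; 95% interval -2.53 to 0.60), 0.46 ± 0.75 in LPC-high (adjusted p = 0.876; -1.10 to 2.03), 0.22 ± 0.74 in lysolecithin-low (adjusted p = 0.926; -1.32 to 1.77) and -0.89 ± 0.75 in lysolecithin-high birds (adjusted p = 0.793; -2.45 to 0.68) by limma. In the ileum limma called 0.0313% of probe sets in LPC-low, 0 in LPC-high, 0.875% in lysolecithin-low and 0.216% in lysolecithin-high birds. For LPC-high, 3828 probe sets had an unadjusted p under 0.05. The F-test over diets gave 1.49 (adjusted p = 0.582), and 0.138% of probe sets passed it. Without the arrays on the wrong side, the LPC-low difference was 0.06.

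**Figure D3:**
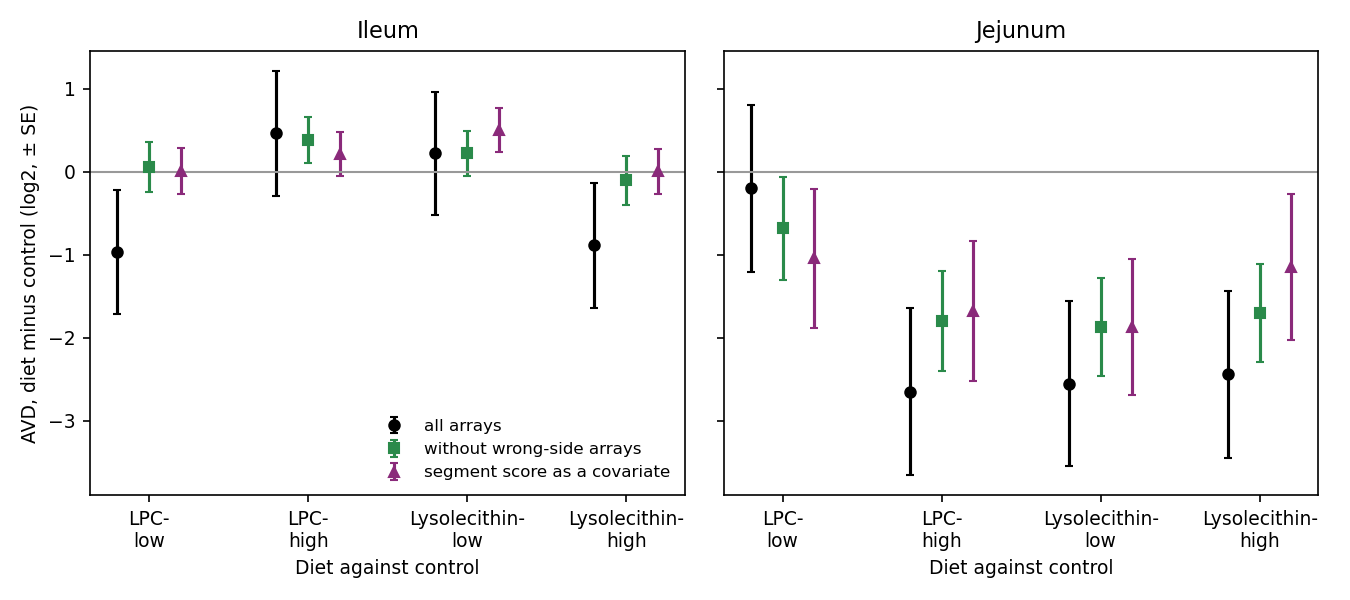
Difference in AVD between each supplemented diet and control (log2, points with bars of ± 1 SE from limma) for the ileum on the left and the jejunum on the right, with all arrays (circles), without the arrays on the wrong side of the segment score (squares) and with the segment score as a covariate (triangles). In the jejunum all points lie below 0, and in the ileum all but the LPC-low and lysolecithin-high circles and the lysolecithin-high square lie above 0.

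The second question was whether lysolecithin and purified LPC differ when they supply the same amount of LPC. They were compared at 2 levels in 2 segments, 4 pairs in all, and AVD passed the threshold in none. In the jejunum lysolecithin-low differed from LPC-low by -2.36 ± 1.01 (limma, unadjusted p = 0.0294, adjusted p = 0.939; 95% interval -4.46 to -0.26), a comparison that holds the LPC-low array at 13.12. Without the arrays on the wrong side, that one included, it was -1.19 (adjusted p = 0.964). Lysolecithin-high differed from LPC-high in the jejunum by 0.21 ± 1.01 (adjusted p = 0.977; interval -1.89 to 2.30). In the ileum the differences were 1.19 ± 0.75 at the low level (adjusted p = 0.542; interval -0.38 to 2.75) and -1.35 ± 0.75 at the high level (adjusted p = 0.998; interval -2.91 to 0.21). The intervals allow differences of over 2 log2 units in 1 direction or the other. In the jejunum limma called 0 probe sets at either level, with 1999 at the low and 2346 at the high level at an unadjusted p under 0.05. In the ileum it called 0.0365% at the low level and 0 at the high level, where 1336 had an unadjusted p under 0.05.

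Whether the diets changed AVD differently in the 2 segments was tested on the differences within birds. The F-test over diets gave 3.67 (limma, unadjusted p = 0.02, adjusted p = 0.41), and 0.00521% of probe sets passed it. Relative to control, the ileum minus jejunum difference was larger by 3.11 ± 1.26 in LPC-high (adjusted p = 0.654), 2.78 ± 1.24 in lysolecithin-low (adjusted p = 0.964) and 1.56 ± 1.26 in lysolecithin-high birds (adjusted p = 0.648), and in LPC-low birds it changed by -0.77 ± 1.26 (adjusted p = 0.937). None of these passed the threshold.

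The relatives of avidin were also read in both segments. AVD was chosen as the gene with the largest difference toward the ileum, so a smaller one in its relatives was fixed in advance and is no result. The array carries 4 other avidin-family probe sets. AVR2 and LOC427416, avidin-related genes, are annotated together to 2 of them. The first had 3.27 ± 0.36 in the ileum and 2.77 ± 0.21 in the jejunum and was higher in the ileum of 21 of 25 birds. The second had 4.88 ± 0.32 in the ileum and 4.40 ± 0.26 in the jejunum and was higher in the ileum of 22 birds (SD, n = 25 each). By limma with the bird as a block the first was 0.50 ± 0.09 higher in the ileum (adjusted p = 0.000164) and the second 0.47 ± 0.08 (adjusted p = 0.00011). Their means over all arrays, 3.02 and 4.64, lie below or within the range of the array medians, 4.57 to 4.70, and the log2 differences of such dim probe sets can be compressed, so their size cannot be set against that of AVD. The 2 probe sets of AVDL, an avidin-like gene, had 6.57 ± 0.19 and 6.16 ± 0.22 in the ileum and 6.50 ± 0.15 and 6.08 ± 0.19 in the jejunum, and neither difference passed (0.07 each, adjusted p = 0.323 and 0.293 by limma). No comparison with the control diet took any of the 4 past the threshold in either segment by limma, and the nearest was the second AVDL probe set in the jejunum of lysolecithin-high birds (-0.33 ± 0.11, unadjusted p = 0.00459, adjusted p = 0.123). These genes are close copies of AVD, and AVR2 and LOC427416 share their probe sets. How the transcripts divide among the probe sets is therefore uncertain, and cross-hybridisation was not tested.

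**Figure D4:**
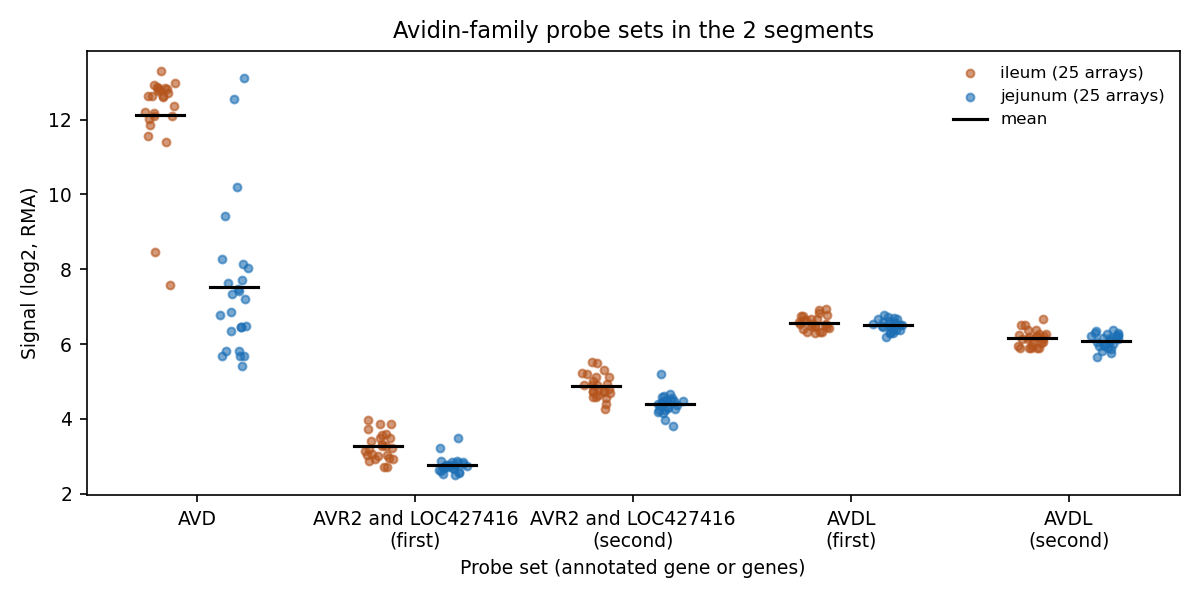
Signal (log2, RMA) on the vertical axis of the 5 avidin-family probe sets on the horizontal axis, with 1 point per array, ileum left and jejunum right, and a black bar at the mean of 25 arrays. The means of AVD, which was chosen for its segment difference, stand 4.61 apart. Those of each of the other 4 probe sets stand within about 0.5 of each other.

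Genes whose bird-to-bird pattern most resembled that of AVD were found separately within each segment. These correlations describe arrays that share batch, diet and position along the gut, and carry no test. The genes named are the extremes of a search over all genes with a single symbol, so the size of r partly reflects that choice. Across the 23 own-side ileum arrays the highest were MMP7, the secreted protease matrilysin (r = 0.796), SLC45A4 (0.748), LYGL, a lysozyme g-like gene (0.728), ENTPD8, an ectonucleotidase (0.718), and SLC6A17, a transporter of the neurotransmitter symporter family (0.712). MMP7 was itself 2.49 and LYGL 2.87 higher in the ileum on the log2 scale. The lowest were CADM1, a cell adhesion molecule (-0.71), KATNIP (-0.686) and SLC25A16, a mitochondrial carrier (-0.683).

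Across the 23 own-side jejunum arrays the highest were EFNB1, the membrane ligand ephrin-B1 (r = 0.762), SEPTIN9, a cytoskeletal GTPase (0.73), ACVR2A, an activin receptor (0.715), C17orf67 (0.707) and RGR, an opsin-like receptor (0.704). The lowest were MIB1, a ubiquitin ligase of Notch ligands (-0.784), ASMTL (-0.784) and TIMM17B, a part of the mitochondrial import machinery (-0.783). Over the ileum minus jejunum differences of 21 own-side birds the highest were ST14, the epithelial protease matriptase (r = 0.792), IL22, a cytokine that acts on epithelium (0.781), RNFT1 (0.78), INPPL1, an inositol phosphatase (0.78), and DOCK9, a guanine nucleotide exchange factor (0.777). The lowest were CDYL (-0.844) and ZMYND11 (-0.799), both chromatin proteins, and ANAPC1, a subunit of the anaphase-promoting complex (-0.786). IL22 also followed AVD within the jejunum (r = 0.697) and less closely within the ileum (r = 0.389). IL22 was dim, at 4.97 in the ileum and 4.36 in the jejunum, near the array medians of 4.57 to 4.70.

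Because avidin is known from inflamed tissue, genes of inflammation were compared between segments. Of 23 measured, 7 were higher and 3 lower in the ileum and 13 did not pass (limma, adjusted p under 0.05), with a list median of 0.10 against 0.006 for all probe sets. IL8L2, a chemokine that draws heterophils, was 2.22 ± 0.37 higher (adjusted p = 9.66e-05, 20 of 25 birds). The adaptor of Toll-like receptors MYD88 was 0.65 ± 0.14 higher (adjusted p = 0.00136), and IL22 was 0.61 ± 0.12 higher (adjusted p = 0.000461, 23 of 25 birds). IL18, a cytokine of the interleukin-1 family, was lower, with a difference of -0.73 ± 0.10 (adjusted p = 6.9e-06; higher in the ileum of 2 birds). A share of 10 in 23 genes past the threshold stands beside the 19.7% of all probe sets. The mean of the inflammation list correlated with AVD across own-side ileum arrays at r = 0.521 (n = 23, permutation p = 0.0112, adjusted p = 0.0392) and rho = 0.358 (permutation p = 0.0943, adjusted p = 0.228). Among own-side arrays that relation rests on 2 arrays, since without the 2 farthest from the median r was 0.292 (permutation p = 0.199), and within batches it was 0.886, 0.13 and 0.7. Over all 25 ileum arrays, the 2 that scored as jejunum included, r was 0.674 (permutation, adjusted p = 0.00028) and rho was 0.499 (adjusted p = 0.0411). Without the 2 farthest of those r was 0.521 (permutation p = 0.0109), the same r as over the own-side arrays, so this is not a separate check. In the jejunum r was 0.287 (n = 23, permutation p = 0.182, adjusted p = 0.255) and rho was 0.07 (permutation p = 0.749), and over all 25 arrays r was 0.404 (permutation, adjusted p = 0.0746).

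Among 21 genes of antimicrobial and mucosal defence, 4 were higher and 2 lower in the ileum, with a median of 0.004, beside 9.8% higher and 9.92% lower of all probe sets. LYG2, a goose-type lysozyme, was 2.14 ± 0.40 higher (adjusted p = 0.00031, 21 of 25 birds by limma), and NOX1, an epithelial NADPH oxidase, was 1.07 ± 0.19 higher (adjusted p = 0.000182). EXFABP, a siderophore-binding lipocalin, was 0.53 ± 0.11 higher (adjusted p = 0.00056). LEAP2, a peptide made by enterocytes, was lower, with a difference of -1.10 ± 0.19 (adjusted p = 0.000124).

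Among other egg white proteins, 3 of 17 measured were higher in the ileum, none was lower and 14 did not pass, with a median of 0.01. Of all probe sets 9.8% were higher and 9.92% lower, so with 17 genes the share called stands near that of the whole array. The 3 were SPINK5, a protease inhibitor (0.86 ± 0.13, adjusted p = 3.64e-05 by limma), EXFABP and CST3, the cystatin of egg white (0.32 ± 0.05, adjusted p = 3.37e-05). Ovalbumin (OVAL) differed by 0.01, ovomucoid (SPINK7) by -0.01 and ovotransferrin (TF) by 0.07, none past the threshold. OVAL was dim, at 3.265 in the ileum and 3.254 in the jejunum, below the array medians of 4.57 to 4.7. A small difference in so dim a signal cannot show whether the gene differs between the segments as AVD does. SPINK7, at 5.567 and 5.579, and TF, at 9.075 and 9.008, were above these medians. Of 5 steroid receptors NR3C2, the mineralocorticoid receptor, was higher in the ileum by 0.36 ± 0.08 (adjusted p = 0.00272), and the progesterone receptor PGR differed by 0.04, not past the threshold. PGR was also dim, at 2.845 in the ileum and 2.805 in the jejunum, so the limit given for OVAL holds for it too.

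Genes of biotin handling and of the subunits of biotin-dependent carboxylases made a list of 9. Of these, 1 was higher and 2 were lower in the ileum, with a median of -0.14, beside 9.8% higher and 9.92% lower of all probe sets. ACACA, the biotin-dependent carboxylase that starts fatty acid synthesis, was 0.57 ± 0.10 higher (limma, adjusted p = 9.84e-05, 21 of 25 birds). MCCC2 of leucine breakdown differed by -0.37 ± 0.09 (adjusted p = 0.00581) and PCCA of propionate breakdown by -0.34 ± 0.08 (adjusted p = 0.00416). Without the birds that had an array on the wrong side, 5 of the 9 were lower, while 23.6% of all probe sets were then called, 11.8% higher and 11.9% lower.

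Against the control diet few genes of these lists stood out. Over 4 diets and 2 segments, 1 gene of the 5 lists passed: IL8L2 in the jejunum of lysolecithin-high birds, with a difference of -2.82 ± 0.56 (limma, adjusted p = 0.0202), in a comparison in which 0.829% of all probe sets passed, 0.662% with a lower signal. In the same birds jejunum AVD differed by -2.44, not past the threshold.

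**Figure D5:**
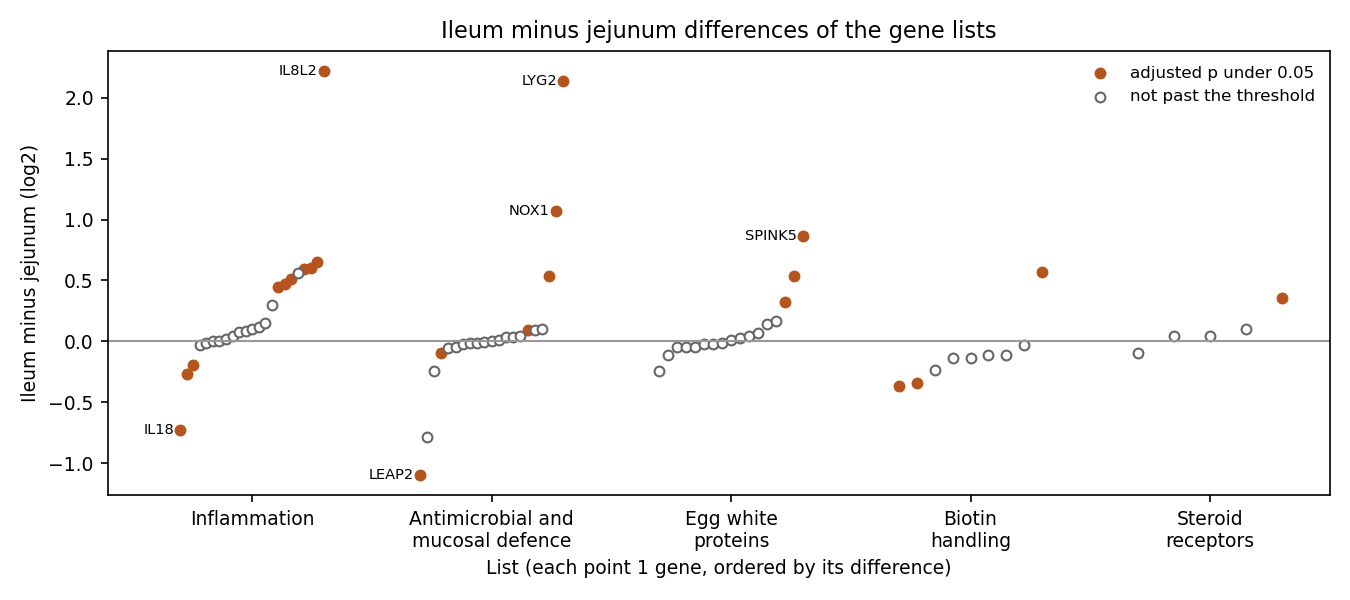
Ileum minus jejunum difference (log2) on the vertical axis of each gene of 5 lists on the horizontal axis, with filled points for an adjusted p under 0.05 by limma and open points for the rest, and names beside the filled points more than 0.7 from 0. IL8L2 at 2.22 and LYG2 at 2.14 stand highest, and AVD at 4.61 is not drawn.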

How the data were processed

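Mucosal RNA of 25 birds was hybridised to 50 Affymetrix chicken genome arrays. The authors deposited log2 signals per probe set made with RMA, and limma is also named, per the submitters' processing notes, which give no versions. Of 38535 probe sets, 153 control probe sets were left out and no filter was set on dim signals. The 25 arrays of a segment were fitted with limma 3.58.1 in R 4.3.3, with diet and batch as terms and Benjamini-Hochberg adjustment over all 38382 probe sets at a threshold of 0.05. The segment fit had a block per bird. Bird numbers in the titles pair the arrays, and for 24 of 25 birds the values of the 100 probe sets used for matching paired them too. Each listed gene was read by its brightest probe set. Correlations used 100000 permutations in numpy 2.4.6, with ranks from scipy 1.17.1. RMA equalises the arrays, so differences are relative to the bulk of the array, and the number of birds limits precision.

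The member, lists and tests were chosen with earlier results of these data known. Named genes were the avidin-family probe sets, the 5 most and 3 least alike genes per measure of likeness, up to 4 leading members per list, the segment markers, and, chosen after their values were seen, OVAL, SPINK7, TF, PGR, CTSS and S100A12. Gene symbols came from the platform annotation: 27168 probe sets had 1 symbol, 177 several and 11037 none, and 26853 matched the current gene table. The array's genome build is not given in the sources used here. Alternatives were other batch terms, covariates, priors, weights, scalings and sample sets, and each bird left out.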

Additional observations from a re-analysis of the deposited data

Results flagged for a closer look

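In 3 of 10 groups of 5 birds, 1 AVD signal lay farther from its neighbours than Dixon's test allows, and chance flags about 1 in 20 groups. The ileum array of lysolecithin-high replicate 4 had 8.46, and the others of its group had 11.85 to 12.93. The jejunum array of LPC-low replicate 4 had 13.12, and the others of its group had 7.35 to 8.13. Both are arrays on the wrong side of the segment score. The ileum array of lysolecithin-low replicate 5 had 12.09 in a group that otherwise spanned 12.64 to 12.79, and its segment score was that of an ileum.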

How the results depend on the processing

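Over 392 alternatives of 15 tested AVD results none passed the threshold, as in the reported fits; the lowest adjusted p was 0.0756, for LPC-high in the jejunum with array weights. Of these, 288 were of differences that carry a sign, which held in 266 and turned in 22. Leaving out each bird in turn, the jejunum difference from control ran from -1.31 to 0.44 for LPC-low, turning positive without control replicate 2 among others, from -3.71 to -1.93 for LPC-high, from -3.48 to -1.85 for lysolecithin-low and from -3.51 to -1.81 for lysolecithin-high. It ran from -0.0285 to 0.80 for lysolecithin-high against LPC-high. In the ileum it ran from -1.31 to 0.17 for LPC-low and from -0.0544 to 0.44 for lysolecithin-low. The segment difference ran from 4.50 to 4.87.

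Lysolecithin-high against LPC-high in the jejunum turned to -0.072 with no batch term and in the exact permutation test, and to -0.12 with batch as a random block. Ileum LPC-low turned to 0.0565 without the arrays on the wrong side, 0.32 without these and the bird whose arrays did not match, 0.0075 with the segment score as a covariate, and 0.134 with that covariate and without the arrays on the wrong side. Ileum lysolecithin-low against LPC-low turned to -0.10 without the wrong-side arrays and the unmatched bird. With the index as a covariate, ileum LPC-high turned to -0.37 and lysolecithin-low to -0.0676, and with the score as a covariate ileum lysolecithin-high turned to 0.0055. The causes of these changes were not tested. The 2 settings without the unmatched bird and the score covariate without wrong-side arrays were chosen after seeing the data. An alternative with other AVD probe sets was not run, since the array has 1.

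With a replicate block per bird in a joint fit of the segments, jejunum differences from control were -0.34, -2.53, -2.56 and -2.58 for LPC-low, LPC-high, lysolecithin-low and lysolecithin-high (adjusted p = 0.953, 0.277, 0.378 and 0.142). Lysolecithin-high against LPC-high was -0.0496 in that fit, and the block changed no call. In the biotin list, 5 genes rather than 2 were lower without the birds that had a wrong-side array.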
